A study of Homo sapiens with 8 samples.

Results

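The BCL2 family members described here were the 10 genes BCL2, BCL2L1, MCL1, BAX, BAK1, BBC3, PMAIP1, BCL2L11, BID and BIK, selected by gene symbol from the 59050 symbols of the count files. All 10 were present and all 10 passed the filter on low counts, among 16219 genes tested. RNA was sequenced from H2122 xenografts, tumours that this established line of human lung cancer cells formed in mice. The 4 tumours of the first group were grown from parental cells of WT genotype, and the 4 of the second from SMARCA4 KO cells, in which the gene of a SWI/SNF chromatin remodelling ATPase was knocked out. All 8 received vehicle. The labels give no age, sex or strain of the host and do not say whether the knockout cells are 1 clone. They number the replicates without saying whether each came from a separate animal, so p-values measure the spread between these samples.

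BCL2 family proteins decide whether the outer membrane of the mitochondrion is opened during apoptosis. The effectors BAX and BAK form the pores through which cytochrome c leaves. Anti-apoptotic relatives such as BCL2, BCL-XL (the long product of BCL2L1) and MCL1 hold the effectors and the BH3-only proteins in check, and BH3-only proteins, which carry only the BH3 motif of the family, signal stress by binding the anti-apoptotic proteins or by activating the effectors directly. Lung cancer cells often depend on MCL1 or BCL-XL for survival.

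PMAIP1 and BID, both coding for BH3-only proteins, were the members that fell in knockout tumours, to 58.3% and 59.6% of the parental mean. No member was called higher in this fit, and the remaining 8, among them all 3 anti-apoptotic genes and both effectors, did not pass the test. MCL1, with a log2 fold change of 0.43, fell just short (edgeR adjusted p = 0.0536) and was called higher in 4 of 7 other settings on all 8 tumours. The test was edgeR's quasi-likelihood F-test with Benjamini-Hochberg adjustment over all 16219 genes, and a gene is called changed at an adjusted p under 0.05. Of all genes tested, 27.0% were called, 14.1% as lower and 13.0% as higher in knockout tumours, so 2 of 10 called is near the level of the whole transcriptome. The median log2 fold change (knockout over parental) was -0.15 over the 10 members and 0.00 over all genes tested.

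The bases 5′ of the RefSeq start are shown for the BH3-only genes that passed the test. They include BMF and HRK, BH3-only genes outside the 10 members, which are described further on. HRK passed the filter on low counts through the knockout libraries alone, so its call is no support. Each run is the 250 bases 5′ of the RefSeq gene start on the gene's strand (GRCh38.p14), and capitals mark matches, on either strand, to any of the motifs searched. GENCODE 29 places some starts farther upstream, so that all 250 bases of the BID window, 48 of the PMAIP1 window and 13 of the BMF window lie inside the gene as GENCODE draws it, and 0 of the HRK window. Among members whose windows are searched but not shown, this holds for all 250 bases of BCL2 and BCL2L11. It holds for 99 bases of BBC3, 60 of BAX, 26 of BCL2L1 and 17 of BAK1.
PMAIP1 (chr18:59899746-59899995, plus strand): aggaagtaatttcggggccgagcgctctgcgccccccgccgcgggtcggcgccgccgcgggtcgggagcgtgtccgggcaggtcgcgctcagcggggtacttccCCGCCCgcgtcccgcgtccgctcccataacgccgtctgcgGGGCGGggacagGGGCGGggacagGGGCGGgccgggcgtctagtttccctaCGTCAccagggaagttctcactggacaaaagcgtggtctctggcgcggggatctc
BID (chr22:17774470-17774719, minus strand): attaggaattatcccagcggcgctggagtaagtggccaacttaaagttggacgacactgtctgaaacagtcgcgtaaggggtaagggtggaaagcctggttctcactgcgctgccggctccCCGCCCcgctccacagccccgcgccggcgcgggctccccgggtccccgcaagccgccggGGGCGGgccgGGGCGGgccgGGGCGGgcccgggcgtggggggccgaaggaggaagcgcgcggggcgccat
BMF (chr15:40108880-40109129, minus strand): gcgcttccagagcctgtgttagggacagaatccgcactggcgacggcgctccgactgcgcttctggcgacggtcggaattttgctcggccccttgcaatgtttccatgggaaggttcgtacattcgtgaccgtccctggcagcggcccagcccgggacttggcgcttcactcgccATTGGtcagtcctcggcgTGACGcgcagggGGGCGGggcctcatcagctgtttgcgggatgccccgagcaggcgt
HRK (chr12:116881442-116881691, minus strand): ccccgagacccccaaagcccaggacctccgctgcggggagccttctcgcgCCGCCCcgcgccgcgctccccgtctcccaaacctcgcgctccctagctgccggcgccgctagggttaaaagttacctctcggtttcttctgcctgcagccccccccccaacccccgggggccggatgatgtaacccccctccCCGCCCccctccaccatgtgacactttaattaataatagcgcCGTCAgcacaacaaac

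The motifs searched were the GC box GGGCGG, the CCAAT box CCAAT, the cyclic AMP response element half-site TGACG, the E-box CACGTG and the AP-1 site TGANTCA. None of the matches in these 4 windows overlapped another. PMAIP1 and BID each held 4 GC boxes, HRK held 2 and BMF held 1. The GC box was found in 42.3% of 27305 gene windows of this length in RefSeq, and in 5 of the 8 members with a window in that table (BCL2L11, BAX and BAK1 besides PMAIP1 and BID), so it did not set the 2 lower members apart from members that did not pass the test. The half-site TGACG occurred once in PMAIP1, BMF and HRK and not in BID, against 21.7% of all windows. It was also in BCL2, BCL2L1 and BAX, members that did not pass the test, and so in 4 of the 8 members with a window. The CCAAT box occurred in BMF, against 33.0% of all windows, and in 4 of the 8 members, neither PMAIP1 nor BID among them. The E-box and the AP-1 site, held by 6.49% and 6.60% of all windows, had no match in the 4 windows, and occurred in 2 and 1 of the 8 members. GC content was 72.8% for PMAIP1, 72.0% for BID, 66.4% for HRK and 65.2% for BMF. A match describes the letters and does not show a bound factor.

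Depth and identity of the libraries were checked first. Gene counts totalled 19785922 to 23191698 in parental and 20662882 to 21981123 in knockout libraries, and the 10 members together took 0.0863% to 0.0939% and 0.0886% to 0.120% of them. SMARCA4 was at 198 to 235 CPM (counts relative to the scaled library size) in parental and 22.3 to 31.1 CPM in knockout tumours, so each library lay on the side of its label. All 8 markers of tumour epithelium were above 1 CPM in every library, with summed levels of 7980 to 9160 CPM in parental and 6890 to 8250 CPM in knockout tumours, although KRT7 (log2 fold change -0.71) and KRT19 (-1.01) fell (edgeR adjusted p = 0.000333 and 8.49e-05). The 9 leukocyte markers summed to 6.89 to 62.5 CPM in parental and 9.20 to 25.7 CPM in knockout tumours, highest in parental replicates 2 and 3, and 2 of them exceeded 1 CPM in every library. The 6 fibroblast markers summed to 179 to 607 and 343 to 603 CPM, the 5 endothelial markers to 7.25 to 18 and 8.68 to 15.2 CPM, the 7 skeletal muscle markers to 3.88 to 42.6 and 2.39 to 16.6 CPM, and the 3 erythroid markers to at most 0.0488 CPM. Most of the fibroblast sum was COL1A1, at 174 to 572 CPM in parental and 317 to 565 CPM in knockout tumours. PDGFRB and DCN reached at most 0.468 and 0.439 CPM in any tumour. Within these lists single markers differed between the groups although the sums overlapped. LUM, a fibroblast proteoglycan gene, was at 0.104 to 0.638 CPM in parental and 10.1 to 15.5 CPM in knockout tumours. The 3 other tested fibroblast markers were not called. VWF, an endothelial gene, was at 1.27 to 3.08 and 0.28 to 0.439 CPM, and CDH5, another, had 36 counts over the parental and 0 over the knockout libraries. LUM passed the filter on low counts through the knockout libraries alone and VWF through the parental libraries alone. MB, a muscle gene, had a log2 fold change of -0.98 (edgeR adjusted p = 0.0471) with overlapping groups. Mitochondrial genes took 4.74% to 9.47% of gene counts in parental and 8.57% to 10.9% in knockout libraries, lowest in parental replicate 4. The part of these differences in the results for the family was not tested. Leukocytes, fibroblasts, vessels and muscle of a xenograft are cells of the mouse host, while reads were assigned to human genes. Whether reads on these markers came from mouse RNA or from the human tumour cells was not tested. The sums of these lists are therefore no measure of human cells of these types. In bulk tumours, fewer cells of a type and less RNA per cell cannot be told apart either.

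**Figure D1:**
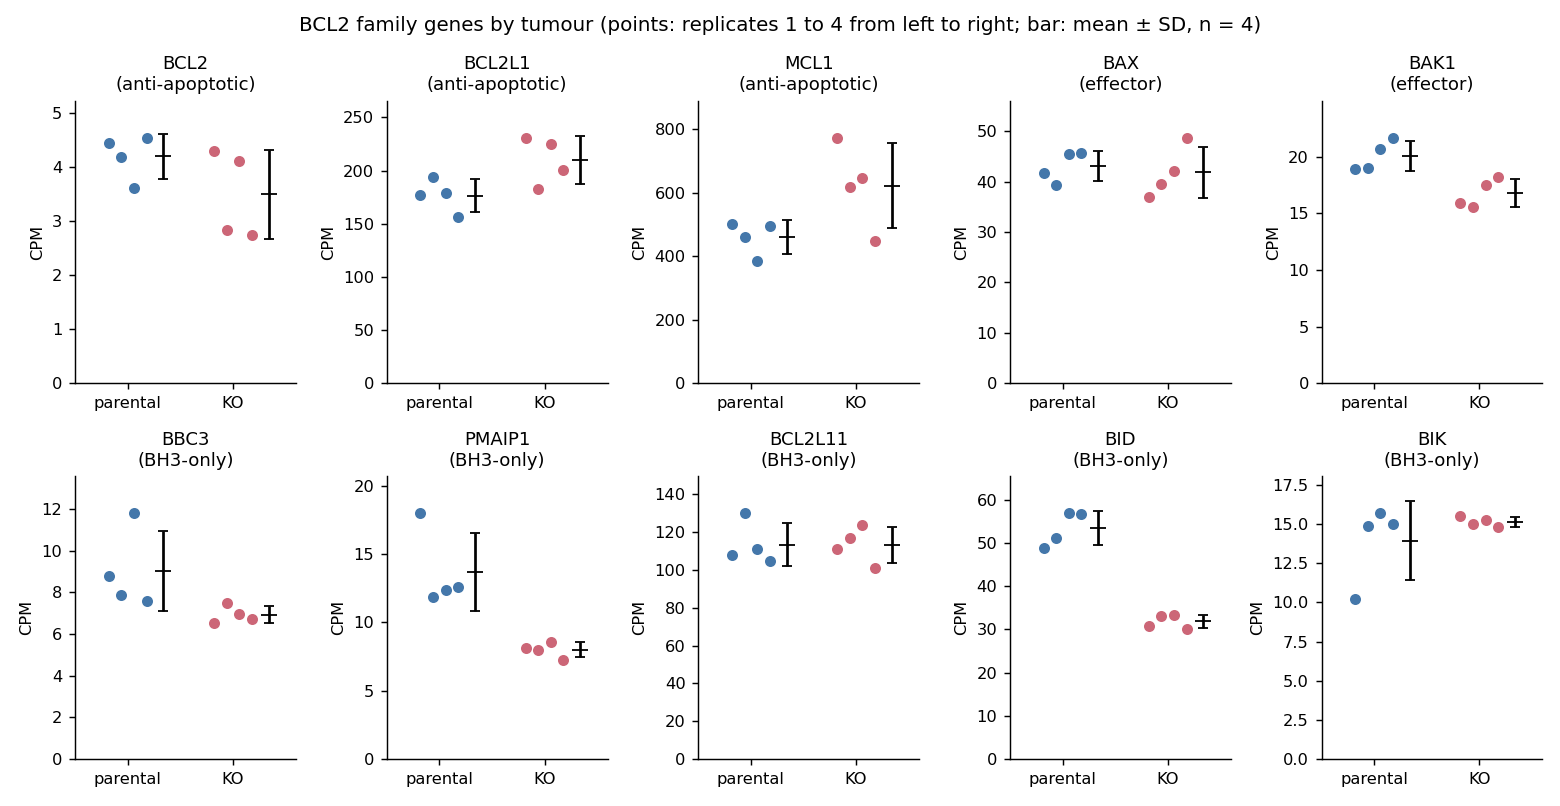
Level of the 10 genes in each tumour, in CPM on axes that start at 0, with points for replicates 1 to 4 and a bar for the mean ± SD of the 4 tumours. The knockout values of PMAIP1 (7.28 to 8.59 CPM) and BID (30.2 to 33.3 CPM) lie below all parental values, those of BAK1 and BBC3 also do by a narrow gap, and the other 6 genes overlap.

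Among the BH3-only genes, BID codes for the protein that caspase-8 cleaves to carry a death receptor signal to the mitochondrion. BID (ENSG00000015475, chromosome 22, 17734138 to 17774770, minus strand, GENCODE 29 on GRCh38) was at 48.9, 51.3, 56.9 and 56.7 CPM in parental replicates 1 to 4 and at 30.9, 33.1, 33.3 and 30.2 CPM in knockout replicates 1 to 4. The groups were far apart and each was narrow, with a coefficient of variation of 7.44% in parental and 4.92% in knockout tumours. The means were 53.4 ± 3.97 and 31.9 ± 1.57 CPM (SD, n = 4 each). The log2 fold change was -0.75 (SE 0.0860, 95% interval -0.93 to -0.56, edgeR adjusted p = 8.71e-05), and it lay between -0.79 and -0.72 when any 1 tumour was left out, with a call each time.

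PMAIP1 codes for NOXA, a BH3-only protein that binds MCL1 with preference and is induced by the integrated stress response. PMAIP1 (ENSG00000141682, chromosome 18, 59899948 to 59904306, plus strand) was at 18, 11.9, 12.4 and 12.6 CPM in parental and at 8.13, 8.0, 8.59 and 7.28 CPM in knockout replicates 1 to 4. All knockout tumours were below all parental tumours, and parental replicate 1 stood above the other 3. The means were 13.7 ± 2.86 and 8.0 ± 0.541 CPM (SD, n = 4 each). On the log2 scale the difference was -0.78 (SE 0.150, 95% interval -1.11 to -0.45, edgeR adjusted p = 0.00276). Without parental replicate 1 the value was -0.63 and still a call, as it was without any other single tumour. Parental replicates 2 and 3 had the highest leukocyte marker sums. Leaving both out gave -0.94 for PMAIP1 (edgeR adjusted p = 0.00187) and -0.74 for BID (0.000577). In that fit 2 of 6 tested leukocyte markers and 1 of 2 endothelial markers were called higher in knockout tumours, so it did not level the markers between the groups.

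BBC3 codes for PUMA, a strong binder of all anti-apoptotic relatives. BBC3 was at 8.80, 7.86, 11.8 and 7.61 CPM in parental and 6.54, 7.51, 6.95 and 6.72 CPM in knockout replicates 1 to 4. The lowest parental and the highest knockout tumour differed by little, and most of the parental spread came from replicate 3. The log2 fold change was -0.38 (95% interval -0.73 to -0.03) with an edgeR adjusted p of 0.10, short of a call, and -0.23 without parental replicate 3.

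BCL2L11, which codes for BIM, an activator of BAX and BAK that ERK signalling restrains, was at 108, 130, 111 and 105 CPM in parental and 111, 117, 124 and 101 CPM in knockout replicates 1 to 4. Both groups had a mean of 113 CPM, and the log2 fold change was 0.00 (95% interval -0.21 to 0.21, edgeR adjusted p = 0.999), so a change of the size seen for BID lay outside the interval. BIK, whose BH3-only protein resides mainly at the endoplasmic reticulum, was at 10.2, 14.9, 15.7 and 15 CPM in parental and 15.5, 15, 15.3 and 14.8 CPM in knockout replicates 1 to 4. Parental replicate 1 was low and all other tumours were close together. The log2 fold change of BIK was 0.12 (95% interval -0.18 to 0.42, edgeR adjusted p = 0.560).

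Of the anti-apoptotic genes, MCL1, which codes for a short-lived protein, was the highest in level. MCL1 (ENSG00000143384, chromosome 1, 150574551 to 150579738, minus strand) was at 500, 460, 386 and 496 CPM in parental and 773, 617, 647 and 449 CPM in knockout replicates 1 to 4. Knockout replicates 1 to 3 were above all parental tumours, and knockout replicate 4 lay among them. The log2 fold change was 0.43 (SE 0.150, 95% interval 0.10 to 0.76) with an edgeR adjusted p of 0.0536, just short of a call. Without knockout replicate 4 it was 0.56 (edgeR adjusted p = 0.00725, a call), and without knockout replicate 1 it was 0.31 (0.159). On all 8 tumours 4 of 7 other settings called MCL1 higher, DESeq2 among them (adjusted p = 0.0289).

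BCL2L1, the gene of BCL-XL and of its short pro-apoptotic splice form, was at 177, 194, 179 and 156 CPM in parental and 231, 183, 225 and 201 CPM in knockout replicates 1 to 4. Knockout replicate 2 lay within the parental range. The log2 fold change was 0.25 (95% interval 0.03 to 0.47, edgeR adjusted p = 0.0888), and counts per gene do not separate the splice forms. BCL2, the founding member of the family, was low, with 58 to 107 counts per library, at 4.45, 4.20, 3.62 and 4.55 CPM in parental and 4.30, 2.83, 4.11 and 2.75 CPM in knockout replicates 1 to 4. The groups of BCL2 overlapped widely, and its log2 fold change was -0.26 (95% interval -0.69 to 0.16, edgeR adjusted p = 0.350).

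The effectors differed little. BAX was at 41.7, 39.4, 45.4 and 45.7 CPM in parental and 36.9, 39.6, 42.1 and 48.7 CPM in knockout replicates 1 to 4, with the knockout tumours spanning the whole parental range. Its log2 fold change was -0.04 (95% interval -0.27 to 0.18, edgeR adjusted p = 0.805). BAK1 was at 18.9, 19.0, 20.7 and 21.7 CPM in parental and 15.9, 15.6, 17.5 and 18.2 CPM in knockout replicates 1 to 4. The groups did not overlap, but the log2 fold change of -0.26 (95% interval -0.48 to -0.04) had an edgeR adjusted p of 0.0781. In all, 4 of the 10 members (BAK1, BBC3, PMAIP1 and BID) had groups that did not overlap, all lower in knockout tumours, against 29.3% of all genes tested in either direction and 15.3% as lower. An unadjusted p under 0.05 was reached by 6 of the 10, against 38.0% of all genes.

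MCL1 and NOXA bind each other, so the ratio of MCL1 to PMAIP1 counts was computed within each tumour, a choice made after the values were seen and given as a description. The ratio was 27.8, 38.8, 31.2 and 39.2 in parental and 95.1, 77.2, 75.3 and 61.7 in knockout replicates 1 to 4. Every knockout tumour had a higher ratio than every parental tumour, and the mean of 77.3 ± 13.7 was 2.26 times the parental mean of 34.3 ± 5.65 (SD, n = 4 each). Transcript ratios do not give protein ratios.

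**Figure D2:**
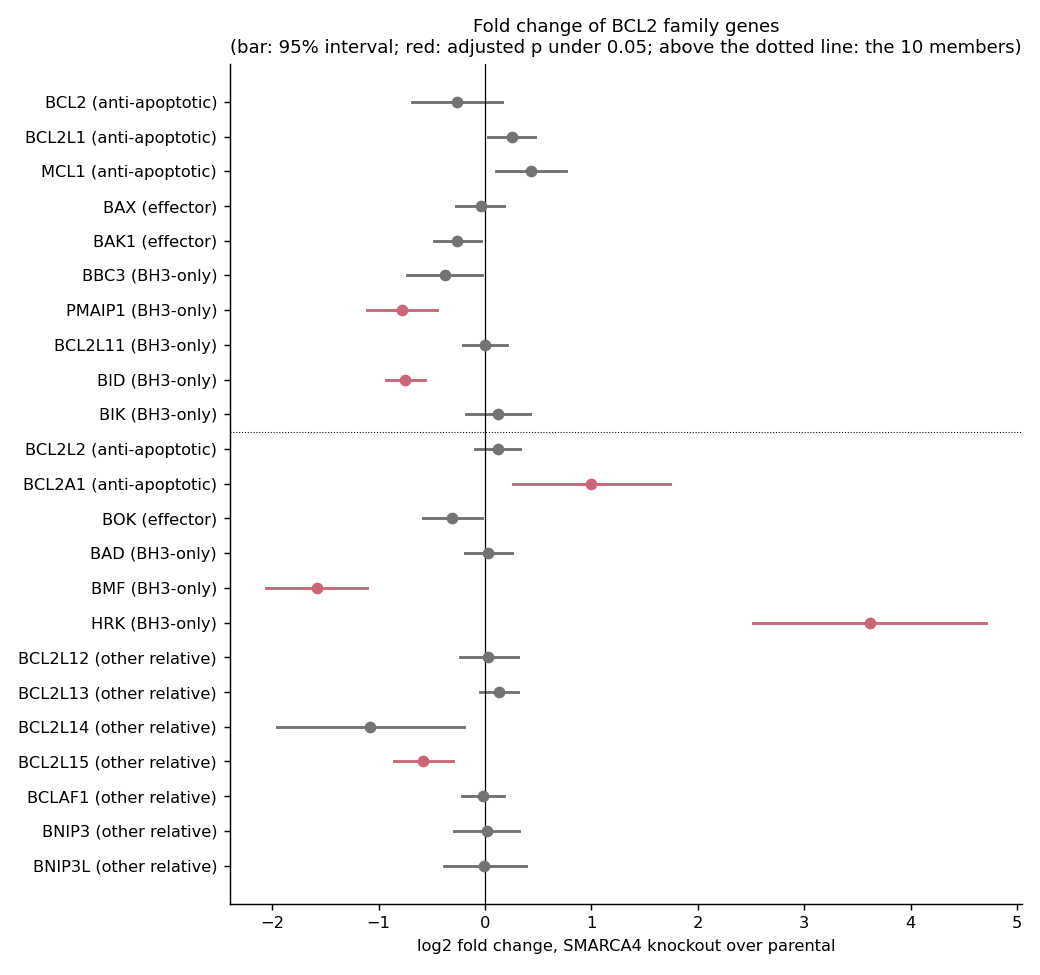
Log2 fold change of knockout over parental tumours for the 10 members (above the dotted line) and 13 other tested family genes, with 95% intervals and genes with an adjusted p under 0.05 in red. PMAIP1 and BID lie near -0.78 and -0.75, while BMF at -1.58 and HRK at 3.62 lie farther from 0. HRK had 6 counts over the parental libraries and passed the filter on low counts through the knockout libraries alone, so its call is no support.

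Levels of different genes were compared per length, as CPM per kilobase of exon over all GENCODE 29 transcripts. In parental tumours the order was MCL1 (105 ± 12), BCL2L1 (53.3 ± 4.63), BCL2L11 (17.0 ± 1.69), BAX (16.6 ± 1.16), BIK (14.6 ± 2.67), BID (12 ± 0.894), BAK1 (9.08 ± 0.624), PMAIP1 (6.13 ± 1.28), BBC3 (2.84 ± 0.604) and BCL2 (0.357 ± 0.0356 CPM per kilobase, SD, n = 4 each). The ranges overlapped between BCL2L11 and BAX, between BAX and BIK and between BIK and BID, while BID (11 to 12.8) lay below all values of BCL2L11 (15.8 to 19.5) and BAX (15.2 to 17.7). All other neighbours were apart. In knockout tumours BID, at 7.17 ± 0.353 CPM per kilobase, came after BAK1, at 7.60 ± 0.572, with overlapping ranges, and the rest of the order was as in parental tumours. MCL1 and BCL2L1 were the 2 highest and BCL2 the lowest in both groups. With exon lengths from the basic transcript set, BAX (30.5) and BID (19.0) came before BCL2L11 (18.6 CPM per kilobase) in parental tumours, so the middle of the order depends on which transcripts are counted.

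**Figure D3:**
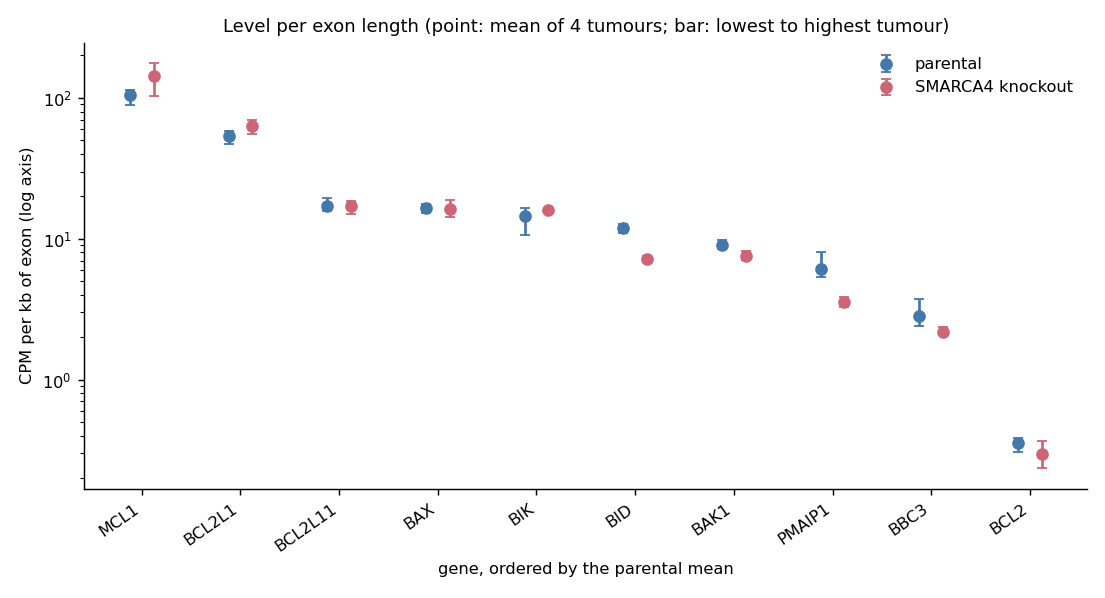
Level per kilobase of exon on a log axis for the 10 members in parental and knockout tumours, with points for the mean and bars from the lowest to the highest of 4 tumours. MCL1 and BCL2L1 lead, and BCL2 is lowest at 0.357 CPM per kilobase in parental tumours. BID and PMAIP1 show gaps between the groups, as do BAK1 and BBC3 more narrowly.

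Some members overlap other genes, and no source used here says whether strand was used in counting. Exons of the antisense gene ABALON cover 43.0% of the BCL2L1 exon length, and exons of the long non-coding gene MIR4435-2HG, on the other strand, cover 10.9% of that of BCL2L11. ABALON had 155 counts summed over the parental and 174 over the knockout libraries, and MIR4435-2HG had 2267 and 2186, with log2 fold changes of 0.17 and -0.03 (edgeR adjusted p = 0.709 and 0.886). Overlap was under 5% for BAK1, BBC3 and MCL1, and none was annotated for BCL2, BAX, PMAIP1, BID and BIK.

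Some genes in the rest of the family had larger fold changes than any of the 10 members. Of 14 further family genes, 13 were tested, 2 were called higher and 2 lower, with a median log2 fold change of 0.02. Of all genes 27.0% were called, 13.0% as higher and 14.1% as lower, so 4 of 13 called is near the level of the whole transcriptome. BMF, a BH3-only gene whose protein senses detachment, was at 33.6, 50.8, 63.0 and 35.4 CPM in parental and 15.6, 19.2, 15 and 11.3 CPM in knockout replicates 1 to 4. The groups were well apart, by -1.58 on the log2 scale (SE 0.216, edgeR adjusted p = 0.000279).

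HRK, a BH3-only gene known mainly from neurons, had 1, 0, 1 and 4 counts in parental and 17, 19, 23 and 19 counts in knockout replicates 1 to 4. It was barely detected in parental tumours and low in all knockout tumours, at 0.794 to 1.07 CPM. As a description, the ratio of pooled counts scaled to library size was 13.1. The fitted edgeR log2 fold change of 3.62 moved to 4.6 without parental replicate 4. HRK passed the filter on low counts through the knockout libraries alone and was left out by the filter of 1 CPM in 4 libraries, so its call among the 2 higher genes is no support and its p is not given.

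BCL2L15, a relative of less certain function, fell from 30.2 to 39.0 CPM in parental to 20.9 to 29.3 CPM in knockout tumours, a log2 fold change of -0.58 (edgeR adjusted p = 0.00603). BCL2A1, an anti-apoptotic NF-kB target that leukocytes also express, rose from 0.932 to 2.59 CPM to 2.1 to 5.07 CPM, a log2 fold change of 1.00 (edgeR adjusted p = 0.0468). The groups overlapped for BCL2A1, and the call held only without parental replicate 3 or knockout replicate 4 among the fits that left out 1 tumour, with the edgeR adjusted p reaching 0.150 without knockout replicate 2. Leukocyte marker sums were highest in parental replicates 2 and 3, where BCL2A1 was also highest among parental tumours. The part of host cell reads in the result was not tested. BCL2L2, the gene of the anti-apoptotic BCL-W, had a log2 fold change of 0.12, the effector-like BOK -0.31 and the BH3-only gene BAD 0.03 (edgeR adjusted p = 0.386, 0.0918 and 0.846). BCL2L10 was not tested, with 2 counts summed over parental and 4 over knockout libraries.

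Downstream of the pore, cytochrome c assembles APAF1 and caspase-9 into the apoptosome, which activates the executioner caspases. Of 9 such genes tested, 1 was called, higher, against 27.0% of all genes called and 13.0% called higher. CASP9 rose from 18.2 to 23.1 CPM in parental to 28.8 to 32.1 CPM in knockout tumours, or by 0.58 on the log2 scale (SE 0.103, edgeR adjusted p = 0.00165). APAF1 at -0.32 was not called (edgeR adjusted p = 0.0644). The median log2 fold change of the 9 was 0.07.

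Inhibitor of apoptosis proteins bind caspases or their regulators. Of 6 tested, 3 were called and all 3 were higher, with a median log2 fold change of 0.26, against 27.0% of all genes called and 13.0% called higher. Of the called genes, BIRC7 passed the filter on low counts through the knockout libraries alone, so its call is no support. BIRC3 (cIAP2) rose from 31.3 to 58.0 CPM to 62.9 to 129 CPM, a log2 fold change of 1.04 (edgeR adjusted p = 0.00571), and BIRC2 (cIAP1) by 0.37 (0.0205). BIRC7 (livin) was low, with 37 counts over the parental and 152 over the knockout libraries and a fitted log2 fold change of 2.05. The BIRC2 call was lost without parental replicate 3, knockout replicate 1 or knockout replicate 2, with edgeR adjusted p-values of 0.0542, 0.0630 and 0.0672. XIAP at 0.07 and BIRC5 (survivin) at 0.14 were not called (edgeR adjusted p = 0.672 and 0.573). BIRC6, a giant ubiquitin ligase of the family, was the member of the list with a negative log2 fold change, -0.43 (edgeR adjusted p = 0.145). It was called lower without parental replicate 3 (0.0432) and without a filter on low counts (0.0455), and was at -0.16 without parental replicate 2.

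At the outer membrane, 6 channel and import genes were tested, of which 1 was called higher and 1 lower, against 13.0% and 14.1% of all genes. VDAC2, whose protein binds BAK and BAX, rose from 245 to 301 CPM to 402 to 435 CPM, a log2 fold change of 0.57 (edgeR adjusted p = 0.000579), while VDAC1 at 0.02 and VDAC3 at 0.11 were not called (0.932 and 0.557). The import receptor gene TOMM20 fell by 0.31 (edgeR adjusted p = 0.0285), a call lost without parental replicate 1 or 4 or without knockout replicate 1, 3 or 4 (0.0536 to 0.0875). Of 7 tested genes for ubiquitin ligases and deubiquitinases that act on MCL1 or on other family proteins, USP13 fell by 0.47 and FBXO10 rose by 0.67 (edgeR adjusted p = 0.0161 and 0.0476). They were the 2 genes called of the 7, against 27.0% of all genes. The USP13 call was lost without knockout replicate 1 (0.0543), and the FBXO10 call held only without parental replicate 3 among the fits that left out 1 tumour and in 2 of 7 other settings on 8 tumours. HUWE1, a ligase of MCL1, at -0.11 and USP9X, which removes ubiquitin from MCL1, at -0.14 were not called (edgeR adjusted p = 0.672 and 0.551).

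Transcription factors that drive BH3-only genes were tested next. Of 8 genes, 2 were called and both were lower, with a median log2 fold change of -0.15. Of all genes 27.0% were called in either direction and 14.1% as lower, so 2 of 8 called is near the level of the whole transcriptome. TP63 fell from 7.67 to 17.6 CPM to 1.5 to 3.31 CPM, a difference of -2.34 on the log2 scale (SE 0.308, edgeR adjusted p = 0.000213). TP73 fell from 1.5 to 4.96 CPM to 0.439 to 0.653 CPM, a fitted difference of -2.23 (SE 0.388). TP73 passed the filter through the parental libraries alone, so its call is no support and its p is not given. FOXO3 at -0.22, DDIT3 at 0.47 and ATF4 at 0.14 were not called (edgeR adjusted p = 0.249, 0.141 and 0.285).

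**Figure D4:**
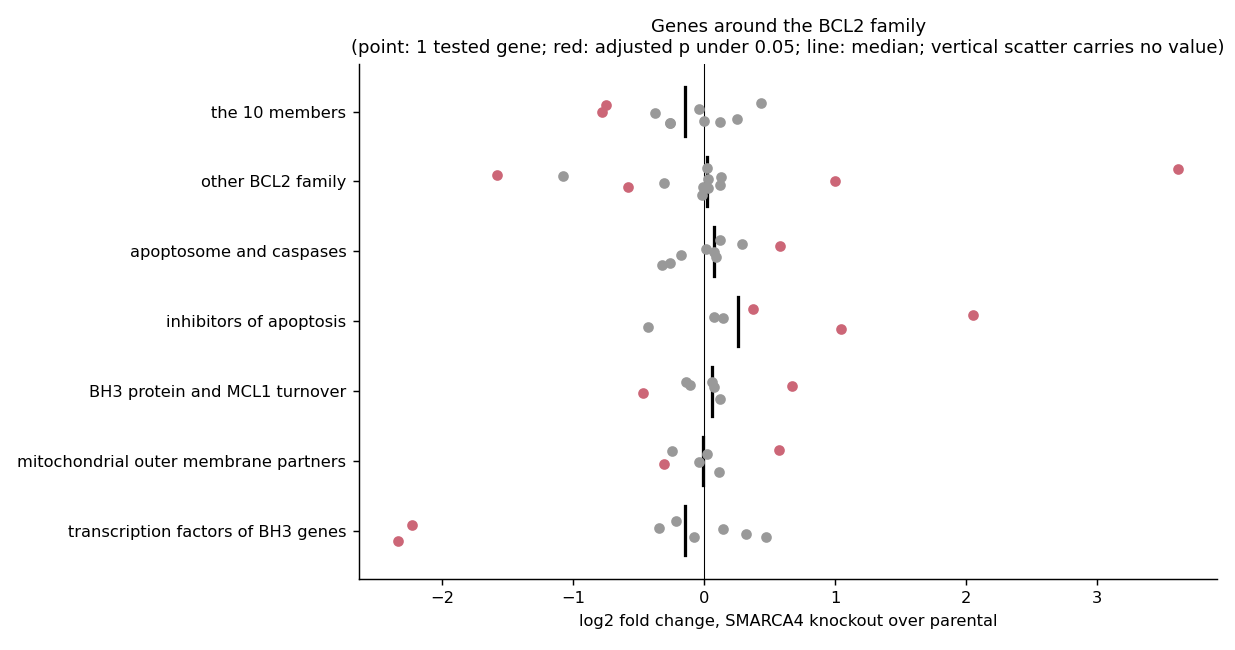
Log2 fold change of each tested gene in the 10 members and in 6 lists of related genes, with called genes in red and a line at each median. Called inhibitors of apoptosis (3 of 6) lie to the right of 0 and called transcription factors (2 of 8) to the left. Of all genes tested, 13.0% were called higher and 14.1% lower. BIRC7 and HRK passed the filter on low counts through the knockout libraries alone and TP73 through the parental libraries alone, so their calls are no support.

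The genes whose pattern over the 8 tumours was most like that of PMAIP1 included TFCP2L1 and RPGRIP1L. Likeness was the root mean square difference of log2 CPM after centring each gene on its mean over 8 libraries, which was 0.144 and 0.146. TFCP2L1 was at 15.6 to 24.6 CPM in parental and 12.3 to 13.9 CPM in knockout tumours, and RPGRIP1L at 9.13 to 12.2 and 6.72 to 7.33 CPM. Their groups did not overlap, which follows from a choice by likeness to a gene whose groups are apart.

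**Figure D5:**
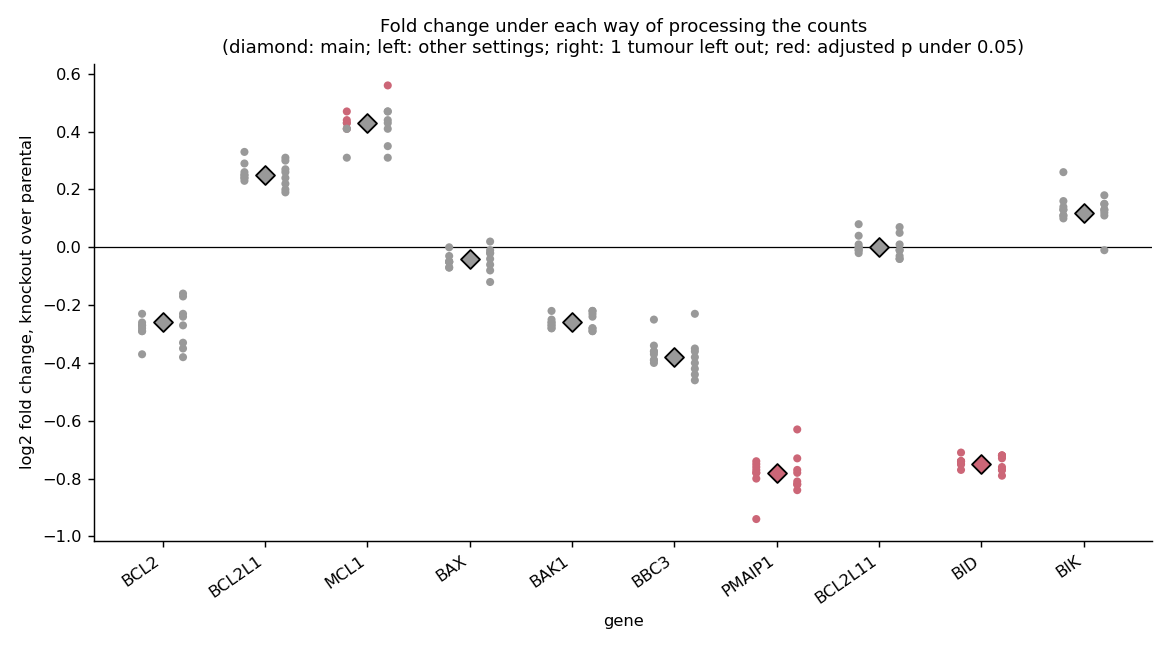
Log2 fold change of the 10 members under the main fit (diamonds), under other settings (left, among them the fit without parental replicates 2 and 3) and with 1 tumour left out (right), with red for an adjusted p under 0.05. PMAIP1 and BID are red throughout, MCL1 only in some fits, and the other 7 in none.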

How the data were processed

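Total RNA of 4 parental and 4 SMARCA4 knockout xenografts was sequenced, with groups and replicates read from the sample titles. Each deposited file holds the raw count of reads for each gene symbol in 1 library. The submitters' processing notes name TopHat2 2.1.1, HTSeq 0.11.0 and hg38, while annotation, strand setting and any removal of mouse reads are not given in the sources used here. The 5 summary lines of each file were left out of library sizes; 79.1% to 85.2% of reads were assigned to genes. No 2 libraries agreed within sampling noise (chi-square per degree of freedom of at least 9.13).

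Counts were fitted with edgeR 4.0.16 in R 4.3.3 (filterByExpr with a minimum count of 10 and a total of 15, TMM scaling, quasi-likelihood F-test, no covariate, Benjamini-Hochberg adjustment over 16219 genes). A check on counts simulated at a single dispersion required only that median fitted fold changes came near the true ones. It set no limit on false calls. CPM used TMM-scaled library sizes. Positions and exon lengths came from GENCODE 29 on GRCh38, promoter windows from RefSeq (1 window per gene, the first listed). Other settings were DESeq2 1.42.0, limma-voom (limma 3.58.1), 2 scalings, 2 filters, the replicate number as a block and leaving out each tumour; leaving out 2 parental libraries and exon lengths from the basic transcripts were added after seeing the data. Named genes were all members, SMARCA4, up to 4 called genes of each list by smallest p, and the 3 genes most like the called member with the largest change; other genes named beside them were chosen after their values were seen. Some genes picked by these rules are not reported here, and the list counts leave them out. The members and lists were chosen with earlier results of these data known. The ratio of pooled counts is given without an interval, and the reads carry no stated molecular identifiers.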

Additional observations from a re-analysis of the deposited data

Results flagged for a closer look

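Dixon's criterion for 4 values was applied to 22 sets, the 10 members and SMARCA4 in each group. It found a tumour far from the other 3 in 2 sets. Chance gives about 5% for independent sets, and these sets share libraries. Both outlying values were in parental replicate 1. PMAIP1 was at 18 CPM there, against 11.9 to 12.6 CPM in the other parental tumours. BIK was at 10.2 CPM there, against 14.9 to 15.7 CPM. Without that tumour the log2 fold change was -0.63 for PMAIP1, still a call, and -0.01 for BIK. Summed leukocyte markers were at 12.1 CPM and skeletal muscle markers at 3.88 CPM in that tumour, against 6.89 to 62.5 CPM and 5.36 to 42.6 CPM in the other parental tumours, and their part in these values was not tested.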

How the results depend on the processing

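PMAIP1 and BID were called lower under all 7 other settings on 8 tumours, in all 8 fits that left out 1 tumour and without parental replicates 2 and 3; log2 fold changes ran from -0.94 to -0.63 and from -0.79 to -0.71. The number of members called was 2 or 3, the third being MCL1 under upper-quartile scaling (0.47), without a filter (0.41), with at least 1 CPM in 4 libraries (0.44), by DESeq2 (0.43) and without knockout replicate 4 (0.56). Over all genes 3871 to 4902 were called under the 7 other settings, 3501 to 4721 with 1 tumour left out and 4946 without parental replicates 2 and 3, where BIRC2 (adjusted p = 0.0818) lost its call and HRK moved to 2.92. SMARCA4 stayed between -3.08 and -2.93. With 1 tumour left out, BAX ran from -0.12 to 0.02 (without knockout replicate 1) and BIK from -0.01 (without parental replicate 1) to 0.18, so the sign of both is unsettled. With the replicate number as a block, 3871 genes and 2 members were called, and TOMM20 (adjusted p = 0.0690) and FBXO10 (0.0981) lost their call, FBXO10 also with DESeq2 size factors (0.05 after rounding), without a filter (0.108), by DESeq2 (0.0507) and by limma-voom (0.0503). Correlations of same-numbered tumours were -0.04, 0.01, -0.28 and 0.12, and those of differently numbered tumours ran from -0.28 to 0.33. So few pairs cannot settle whether the numbers pair the samples. Leaving out 1 tumour moved the called genes of the turnover list from 2 to 0 (without knockout replicate 1). HRK and BCL2L10, with 6 and 2 counts over the parental libraries, are limited by depth.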
